A study of Mus musculus with 194 samples.

Results

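Cytosolic ribosomal protein genes encode the protein part of the ribosomes that translate nuclear-encoded mRNA. The genes described here are the rows of the expression table whose symbol begins with Rpl or Rps followed by a digit, or is Rpsa, Rplp0, Rplp1 or Rplp2, without pseudogene symbols ending in -ps and without the Rps6k kinases. This choice gave 86 of 23420 rows. Of these, 43 encode proteins of the large (60S) subunit, 31 encode proteins of the small (40S) subunit, 3 encode the acidic stalk that recruits translation factors (Rplp0, Rplp1 and Rplp2), and 8 are paralogs or retrocopies of another member. The remaining row, Rps19bp1, fits the symbol rule but encodes a protein that binds Rps19 and is not itself a ribosomal protein.

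Single mouse cells were grown on a microfluidic chip for 2 generations, so that the kinship of the released cells and the time since their last division were recorded, and each cell then gave 1 Smart-Seq2 library, in which the cDNA of polyadenylated RNA is amplified over its whole length. The L1210 cells belong to a lymphocytic leukemia line derived from a DBA mouse (DBA subline 212), and they received no treatment. The CD8+ T-cells were primary cells of C57BL/6J mice, stimulated for 30 h with antibodies against CD3 and CD28 before they were loaded and then kept in medium with IL2. After removal of doublets and of libraries with fewer than 1000 genes above 0 TPM (a share of transcripts corrected for their length), 97 CD8+ T-cells and 81 L1210 cells were analyzed; 4 doublets and 5 poor libraries of the former and 2 and 5 of the latter were set aside. The labels name neither mouse nor culture. For time since division a lineage, the progeny of 1 founding cell, was the replicate, and p-values measure the spread between lineages. The test of lineage itself set the spread between lineages against that between cells of a lineage, so cells were its replicates. The CD8+ T-cells fell into 34 lineages and the L1210 cells into 26.

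The 8 T-cell markers summed to a median of 3561 TPM in the CD8+ T-cells and of 12.7 TPM in the L1210 cells, and the 8 B-lineage markers to 2.67 and 2715 TPM. Myeloid markers had medians of 0 and 17.8 TPM, and erythroid markers were at a median of 0 TPM in both. The depth of a library is not kept by TPM, and the number of genes above 0 TPM ranged from 2639 to 10905 per CD8+ T-cell and from 1610 to 10454 per L1210 cell. In L1210 replicate 8, 20 of the 86 members were at 0 TPM, against at most 9 in any other L1210 cell, and 64 of the 84 members that passed the expression filter had their lowest L1210 value. This cell had 2718 genes above 0 TPM, and 79.3% of its TPM belonged to Rn45s, the precursor of ribosomal RNA, and the main L1210 counts are therefore also given without it.

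A eukaryotic ribosome contains 1 copy of nearly every one of these proteins, and their genes are transcribed at high and similar rates from single active loci. Most of their mRNAs start with a C followed by a run of pyrimidines, the 5′ terminal oligopyrimidine (TOP) tract, through which mTOR signaling controls their translation. Stimulated T-cells enlarge and build ribosomes before they divide. Ribosomal protein mRNAs have also been copied back into the genome many times, and these retrocopies can be nearly identical to the parent gene.

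The start of the transcript was examined first because the TOP tract is the sequence feature shared by the family. Of the 77 members of the subunits and the stalk, 57 matched a gene in the RefSeq table of GRCm38.p6 start sites. A C followed by at least 4 further C or T stood exactly at the annotated start of 13 of them (22.8%), against 2.79% of 16375 genes of the expression table with a start site. A run of at least 8 C or T lay between 20 bases before and 30 bases after the start in 57.9% of the members and in 21.6% of all genes. The windows of 6 members that are described below are shown from 5′ to 3′, with the pyrimidine run that begins at the annotated start in capitals.
Rps18, chr17:33955646-33955675, minus strand: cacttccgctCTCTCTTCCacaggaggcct
Rps6, chr4:86857348-86857377, minus strand: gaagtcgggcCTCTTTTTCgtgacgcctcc
Rplp2, chr7:141447641-141447670, plus strand: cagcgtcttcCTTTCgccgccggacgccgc
Rpl38, chr11:114668570-114668599, plus strand: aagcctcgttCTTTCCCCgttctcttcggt
Rps15a, chr7:118116128-118116157, minus strand: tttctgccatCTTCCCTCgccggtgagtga
Rps27, chr3:90213629-90213658, minus strand: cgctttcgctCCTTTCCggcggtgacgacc

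A further motif was counted on both strands of the window from 250 bases before to 50 bases after each start. The letters CCGGAAG, a core recognized by ETS-family factors, occurred in 42.1% of the members and in 12.9% of all genes. A match of letters in a window is no measure of binding.

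Several members share most of their sequence with another row of the table, and this determined which rows could be read on their own. For 11 members, at least 20% of the 50-base stretches of the mRNA were also present in the transcript of a row that is not a member, 12 such rows in all. Rps27, a small-subunit protein with a zinc finger, had the most extreme case. Its coding sequence of 252 bases is identical in every base to that of Gm9846, an intronless copy that the GENCODE annotation of GRCm38 lists as Rps27rt at chr9:114982366-114982739, whereas Rps27 itself is at chr3:90212522-90213651. The first 120 coding bases, shared by both, are given because no read within them can be assigned to one locus.
Rps27 and Gm9846, coding bases 1 to 120: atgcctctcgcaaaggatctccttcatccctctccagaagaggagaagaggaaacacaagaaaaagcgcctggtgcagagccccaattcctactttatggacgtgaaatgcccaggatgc

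Rpl26, a large-subunit protein that also takes part in the regulation of p53, lies at chr11:68901583-68906989. Its coding sequence differs at 2 of 435 positions from that of Gm15772, a processed pseudogene at chr5:3236431-3236868. Counted from 1 at the A of the start codon, with the base of Rpl26 first, the differences are C177T and T288C, and they are the capitals in the stretch shown.
Rpl26, coding bases 169 to 288: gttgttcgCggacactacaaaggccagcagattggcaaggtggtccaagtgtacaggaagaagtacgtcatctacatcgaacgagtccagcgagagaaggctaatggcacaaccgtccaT
Gm15772, coding bases 169 to 288: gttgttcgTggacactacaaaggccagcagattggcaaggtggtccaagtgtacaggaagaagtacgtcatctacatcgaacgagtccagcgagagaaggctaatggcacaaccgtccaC
Rpl30 differs from the processed pseudogene Gm12191 at 1 of 345 coding positions (G96A), and Rpl34 from Rpl34-ps1 at 2 (T132C and C318G).

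Rps27 ranged from 0 over a median of 829 to 13722 TPM in CD8+ T-cells, where it was at 0 in 28 of 97 cells. In L1210 cells it ranged from 0 over a median of 39.9 to 3993 TPM and was at 0 in 26 of 81. Both rows were above 0 in 36 CD8+ T-cells and 31 L1210 cells, and in every other cell exactly 1 of them was. In the CD8+ T-cells where Rps27 was at 0, Gm9846 had at least 571 and a median of 1279 TPM. The Spearman correlation of both rows over cells was -0.68 in CD8+ T-cells and -0.68 in the L1210 cells. No cell had 0 for the sum of both rows, whose median was 1624 TPM in CD8+ T-cells and 1932 TPM in the L1210 cells. The SD over cells on the ln(TPM + 1) scale was 3.39 for Rps27 and 0.57 for the sum in CD8+ T-cells, and 3.13 and 0.34 in L1210 cells.

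Rpl26, Rpl30 and Rpl34 carried the smaller part of the sum with a near-identical row. Rpl26 was 13.2% of the sum of Rpl26 and Gm15772 in CD8+ T-cells and 17.5% in the L1210 cells. Its own row was at 0 in 15 CD8+ T-cells and 12 L1210 cells, and the sum in 0 and 1. Rpl30 was 13.3% and 15.2% of its sum with Gm12191, and Rpl34 was 7.53% and 10.6% of its sum with Rpl34-ps1. Rps15a was likewise the smaller part of its sum, at 16.7% and 10.96%, whereas Rpl31 held 77.9% and 75.3% of its own. At the other end, Rps26 held 99.1% of its sum with Gm6654 in CD8+ T-cells. The plot of Rps27, Rpl26, Rpl30 and Rpl34 against their near-identical rows shows an exclusive pattern for Rps27 and not for the other 3. The Spearman correlations over L1210 cells were -0.427 for Rpl26, -0.271 for Rpl30 and 0.020 for Rpl34. Over CD8+ T-cells they were 0.245, 0.036 and 0.391.

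**Figure D1:**
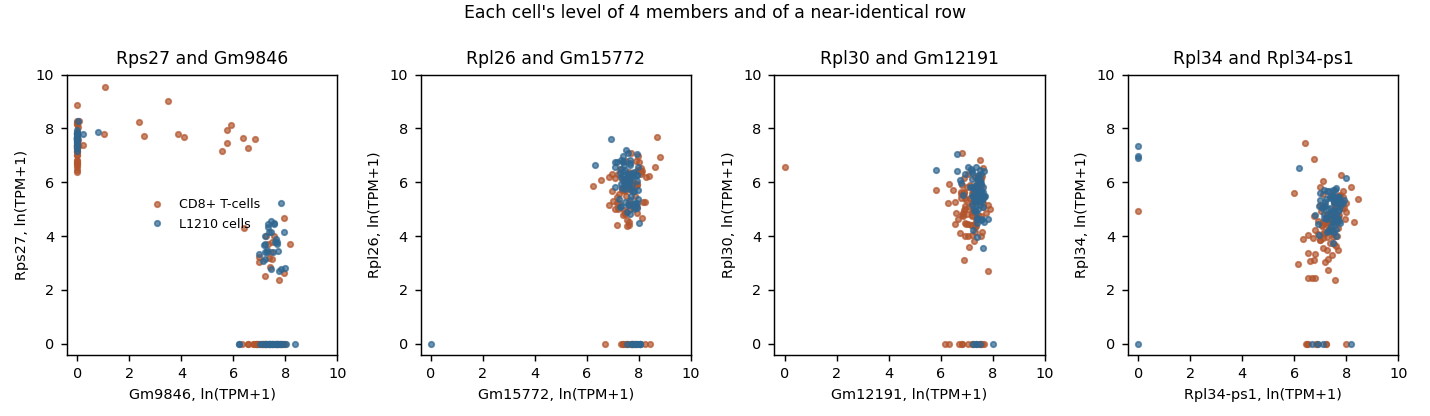
Level of a near-identical row (horizontal axis) and of the member (vertical axis), both as ln(TPM + 1), in each CD8+ T-cell and L1210 cell, for Rps27, Rpl26, Rpl30 and Rpl34. For Rps27 many cells lie on one of the axes, with 1 row at 0 and the other high, whereas for the other 3 members the cells with the member at 0 keep a value above 0 in the other row, except 1 L1210 cell each for Rpl26 and Rpl34, where both rows are at 0.

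Most members were detected in every cell and varied little. Of the 86 members, 73 were above 0 TPM in every CD8+ T-cell and 63 in every L1210 cell. The expression filter (ln(TPM + 1) above 1 in over 10% of a type's cells) kept 83 members in CD8+ T-cells and 84 in the L1210 cells. Those below it were Rpl39l, Rpl3l and Rpl10l in CD8+ T-cells and Rpl39l and Rpl10l in L1210 cells. The median SD over cells on the ln(TPM + 1) scale was 0.407 for the members and 1.29 for all genes that passed the filter in CD8+ T-cells, and 0.309 and 1.07 in L1210 cells. An SD above 1 was seen for 7 members in CD8+ T-cells (Rpl26, Rpl30, Rpl34, Rpl7l1, Rps19bp1, Rps27 and Rps4y2) and for 6 in L1210 cells, of which 3 and 2 remained above 1 once near-identical rows were summed.

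Among the large-subunit members, Rpl13 was the most abundant in L1210 cells, where it ranged from 74.01 over 7179 to 12318 TPM, and it ranged from 1959 over 3888 to 11349 TPM in CD8+ T-cells. Rpl5 and Rpl11, which with 5S rRNA bind Mdm2 when ribosome assembly is disturbed, had medians of 1993 and 2179 TPM in CD8+ T-cells and of 1672 and 2270 TPM in L1210 cells. Rpl38, a protein known for its role in the translation of homeobox mRNAs, was lower at 828 and 1182 TPM. Rpl10, which joins the large subunit late in its maturation, had 3839 and 3159 TPM.

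In the small subunit Rps4x, encoded on the X chromosome at chrX:102184941-102189394, and Rps2 were the highest in CD8+ T-cells. Rps4x ranged from 3637 over 6370 to 19060 TPM in these cells and from 1706 over 3606 to 5330 TPM in L1210 cells. The ranges overlapped, with the higher median in CD8+ T-cells. Rps2 had medians of 6059 and 4960 TPM. Rpsa, also known as the laminin receptor, had 4333 and 2638 TPM, and Rps6, the substrate of S6 kinase, had 2313 and 1790 TPM. Rps3, which lines the mRNA entry channel, had 1557 and 1153 TPM. Rps19, mutated in Diamond-Blackfan anemia, had 2128 and 1991 TPM, and Rps27a, made as a fusion with ubiquitin, had 2347 and 2412 TPM. The lowest small-subunit value outside Rps27 was that of Rps15a, 94.8 and 76.2 TPM, and its sum with Rps15a-ps6 and Rps15a-ps4 was 599 and 697 TPM.

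The stalk proteins were all high, with medians in CD8+ T-cells of 6400 TPM for Rplp0, 3977 TPM for Rplp1 and 2028 TPM for Rplp2, and in L1210 cells of 4992, 4240 and 2232 TPM. Because TPM are corrected for length, these levels can be set beside each other, although their order also reflects how reads were divided among near-identical rows. The 10 most abundant members held 26.97% of the summed ribosomal protein TPM in CD8+ T-cells and 26.2% in the L1210 cells. Small-subunit members held 46.3% ± 0.805 of that sum in CD8+ T-cells (SD, n = 34 lineages) and 44.4% ± 0.729 in L1210 cells (SD, n = 26 lineages).

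The levels of the members were correlated over cells. Pairs were taken among the 73 subunit and stalk members above 0 TPM in over 95% of the cells of a type. Their median Spearman correlation was 0.614 in CD8+ T-cells and 0.353 in the L1210 cells. This is a description over cells that share normalization and, in part, lineage. For 1854 other genes above 0 TPM in over 90% of cells in both types, the median was 0.049 and 0.085. These genes were not matched to the members in level. After the TPM were rescaled without Rn45s the members' medians were 0.461 and 0.252, and those of the other genes 0.045 and 0.041.

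The summed share of the members was then taken over all TPM outside Rn45s. In CD8+ T-cells it was 23.99% ± 4.82 (SD, n = 34 lineages), with cells between 13.7% and 42.5% and a median of 23.5%. In L1210 cells it was 21.2% ± 1.29 (SD, n = 26 lineages), with cells between 17.9% and 30.1% and a median of 21.02%. The spread between lineages was thus wide in CD8+ T-cells and narrow in L1210 cells, while the ranges of the cell types overlapped.

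Cells of a CD8+ T-cell lineage resembled each other in this share. Related cells differed on average by 3.63 percentage points and unrelated cells by 5.38, and the intraclass correlation, the part of the variance that lies between lineages, was 0.417. The 4 cells of the lineage with the lowest mean among lineages of 3 or more cells lay between 13.7% and 21.9%. The 4 cells of the highest lay between 23.5% and 37.6%. Both lineages were picked by this share, so the distance between them is no measure of likeness. In L1210 cells related and unrelated cells differed by 2.10 and 2.25 percentage points, with an intraclass correlation of 0.031. The share of Rn45s in all TPM also followed lineage, with intraclass correlations of 0.451 and 0.396. Its Spearman correlation with the ribosomal protein share over cells was -0.671 in CD8+ T-cells and -0.018 in the L1210 cells, and its part in the likeness of lineages was not tested beyond the rescaling given below for single genes.

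**Figure D2:**
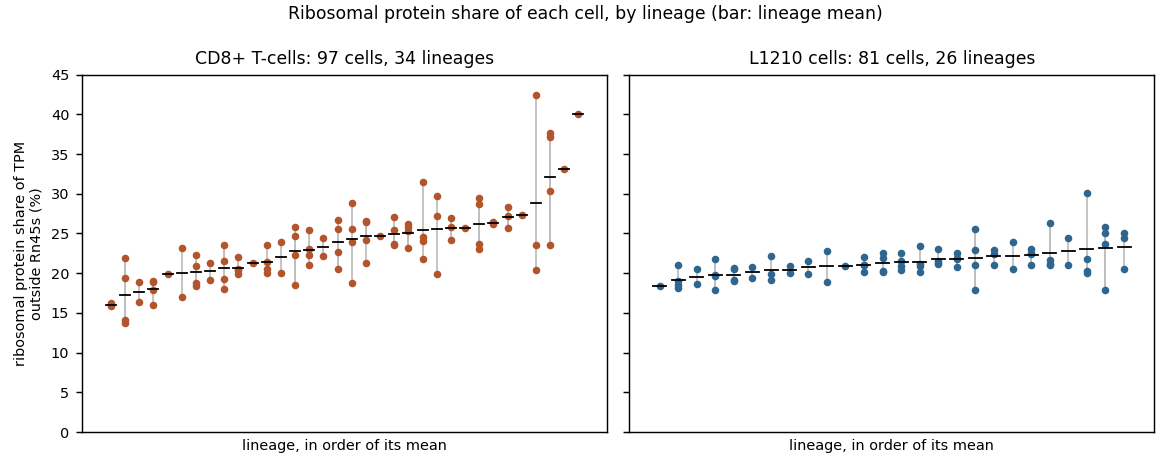
Ribosomal protein share of the TPM outside Rn45s, in percent, for every cell (point) of each lineage, with lineages in order of their mean (bar). CD8+ T-cells are shown on the left and L1210 cells on the right. Lineage means spread from 16.05% to 40.1% in CD8+ T-cells and from 18.4% to 23.3% in L1210 cells. The values of 40.1% and 18.4% each come from a lineage of 1 cell.

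The question of the lineage comparison was whether cells of one founder are more alike in a gene than cells of other founders. Cells of one founder also shared a chip run, and in CD8+ T-cells a mouse, which the labels do not name. Founder, run and mouse therefore cannot be told apart. Lineage was fitted as a factor to ln(TPM + 1) with the moderated F-test of limma, and a gene was called at a Benjamini-Hochberg adjusted p under 0.05 over all genes with an intraclass correlation above 0. In CD8+ T-cells, with 90 cells in 27 lineages of 2 or more, 60 of the 83 members tested were called (72.3%). The same rule called 12.9% of all genes tested. Among 405 other genes whose mean was at or above the members' 10th percentile, it called 30.1%. The calls comprised 32 of 43 large-subunit, 22 of 31 small-subunit and 3 of 3 stalk members and 3 of 5 paralogs. The median intraclass correlation was 0.351 for the members, with 82 of 83 above 0, and 0.090 for all genes.

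The lowest p belonged to Rps18 (chr17:33951999-33956001), a protein of the small subunit head. It ranged from 792 over 3581 to 13070 TPM over CD8+ T-cells, and its lineage means ranged from 7.10 to 9.48 on the ln(TPM + 1) scale. Related cells differed by 0.348 and unrelated cells by 0.534 on that scale, the intraclass correlation was 0.565, and the limma adjusted p was 3.62e-07. The intraclass correlation was higher still for Rps25, a small-subunit protein used by viral internal ribosome entry sites. Rps25 ranged from 194 over 1304 to 5365 TPM, with an intraclass correlation of 0.600 and a limma adjusted p of 2.43e-06.

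The stalk proteins Rplp1 and Rplp0 had intraclass correlations of 0.539 and 0.525, and the limma adjusted p-values were 2.31e-06 and 7.51e-06. For the large-subunit genes they were 0.584 for Rpl27, 0.543 for Rpl32, 0.506 for Rpl10 and 0.500 for Rpl41, which encodes one of the shortest known proteins. The small-subunit genes Rps28 and Rps13 had 0.522 and 0.516. These 10 genes had the lowest p-values, and the limma adjusted p of each was at most 7.84e-05.

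Among the members singled out by role, Rpl11 was called with an intraclass correlation of 0.493 (limma adjusted p = 0.000206), and so were Rps4x at 0.448, Rps27a at 0.387, Rpl13a at 0.360, Rps19 at 0.360 and Rpl38 at 0.317. Rpl5 at 0.421 (limma adjusted p = 0.0571), Rps6 at 0.254 (0.0554), Rpsa at 0.148 (0.172) and Rps3 at 0.215 (0.297) were not called. The rows Rps27, Rpl26, Rpl30 and Rpl34 were not called on their own, with intraclass correlations of 0.068 to 0.131. Each of them was called as the sum with its near-identical row, at 0.396, 0.407, 0.428 and 0.440. When all such rows were summed, 64 members and 13% of all genes were called. Scaling lowered the number of calls. After rescaling without Rn45s, 41 members and 12.5% of all genes were called, and after each cell was centred on genes outside the family 36 members and 9.04%. Without the tested lineage of highest mean ribosomal protein share, 52 members and 10.1% of all genes were called. When the low-share lineage with cells between 13.7% and 21.9% was also left out, 45 members and 9.03% were called. A smaller lineage had the lowest mean share (16.05%, cells at 15.8% and 16.3%) and was kept in both tests. Without CD8 replicate 61, in which 29 members had their lowest value, 58 members and 12.2% of all genes were called.

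In L1210 cells the same rule called 13.4% of all genes. Among 575 other genes at or above a mean level set from the members, as for CD8+ T-cells, it called 25.9%. With 79 cells in 24 lineages, 17 of 84 members (20.2%) were called, a larger share than of all genes and a smaller one than of these abundant genes. They included the large-subunit genes Rpl41 with an intraclass correlation of 0.397 (limma adjusted p = 0.000843), Rpl6 with 0.322 and Rpl13 with 0.281, the small-subunit genes Rps29 with 0.327 and Rps16 with 0.391, and the paralog Rpl22l1 with 0.419 (limma adjusted p = 0.00253). This count rested on L1210 replicate 8. The lineage of replicate 8 held only that cell and its sister, so leaving the cell out took the whole lineage out of this test. Without replicate 8, 4 members were called (Rpl13, Rpl22l1, Rpl41 and Rps26), against 4.80% of all genes. The median intraclass correlation went from 0.195 to 0.054 for the members and from 0.108 to 0.079 for other genes.

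Of the remaining 4, Rpl41 ranged from 0 over 3982 to 8719 TPM in L1210 cells and Rpl22l1 from 0 over 162 to 1116 TPM. Their intraclass correlations without replicate 8 were 0.441 and 0.430, and that of Rpl13 was 0.439. In contrast, Rplp0 went from 0.299 to -0.127 and Rps29 from 0.327 to -0.0745. With all cells, 15 members were called in both cell types, 45 in CD8+ T-cells alone and 2 in L1210 cells alone (Rpl18 and Rps2). Both types called 18.1% of the 83 members tested in both and 2.75% of the 9160 genes tested in both. The shared calls were 88.2% of the members called in L1210 cells, against 20.2% for all genes, and 25% of those called in CD8+ T-cells, against 22.6%. Without replicate 8, 4 members (4.82%) and 1.32% of all genes were called in both types, and no member in L1210 cells alone. Whether the intraclass correlations differ between the cell types was not tested.

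**Figure D3:**
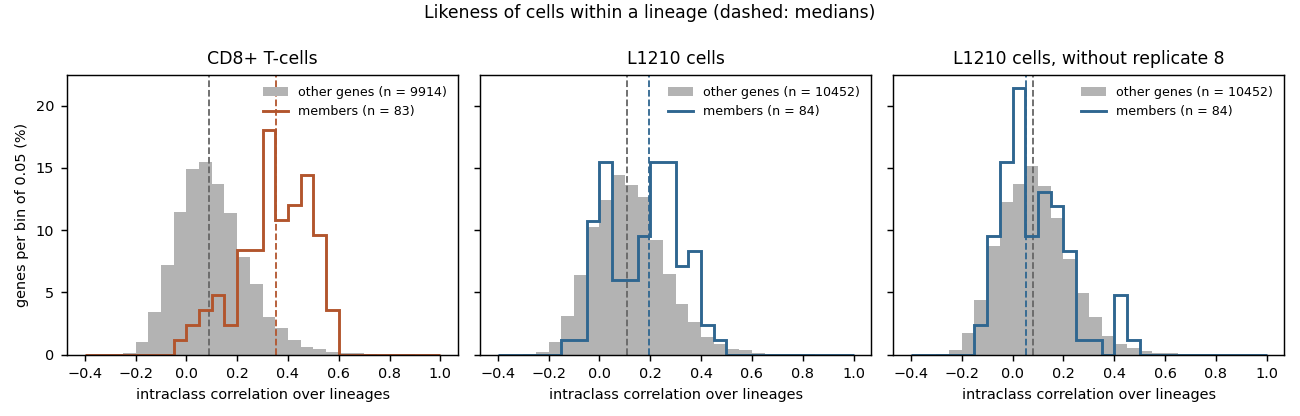
Distribution of the intraclass correlation over lineages for the members (outlined) and for all other genes tested (filled), as the percent of genes in each bin of 0.05, with medians dashed, in CD8+ T-cells, in L1210 cells and in L1210 cells without replicate 8. The members stand to the right of other genes in CD8+ T-cells (medians 0.351 and 0.090 for all genes). In L1210 cells the medians of members and other genes are 0.195 and 0.108, and without replicate 8 they are 0.054 and 0.079.

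The time comparison asked whether expression moved with the hours since the last division, over lineage means. Times were known for 94 CD8+ T-cells of 31 lineages, from 0.5 to 9.475 h, and for all 81 L1210 cells of 26 lineages, from 0.354 to 12.8 h. No member passed the limma test in CD8+ T-cells, where 0.09% of all genes were called, or in L1210 cells, where 0% were called. At an unadjusted p under 0.05, limma gave 18 of 83 members (21.7%) in CD8+ T-cells against 12.9% of all genes, and 4 of 84 (4.76%) in L1210 cells against 5.58%. These fits gave every lineage the same weight. On simulated data they called more unchanged genes than fits weighted by the cells of each lineage. Simulated cells of a lineage were independent, so the simulation cannot decide which weighting suits related cells that are alike. Weighted by the cells of each lineage, limma gave 9 members (10.8%) against 11.9% of all genes in CD8+ T-cells and 7 (8.33%) against 4.69% in L1210 cells. The excess in CD8+ T-cells was thus seen in the unweighted and not in the weighted fit, and an excess in L1210 cells only in the weighted fit. Members vary together over cells, so counts of members are not counts of independent genes, here or in the other comparisons.

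The slopes of the members in CD8+ T-cells had a median of 0.034 per hour on the ln(TPM + 1) scale, with 72 above and 11 below 0, against a median of -0.035 for all genes. After rescaling without Rn45s the median was 0.0162, with 64 above 0, and that of all genes -0.0456. It was 0.0164, with 55 above 0, against -0.0455 in the lineages with recorded cousins, and 0.065, with 80 above 0, against -0.0035 after centring. The lowest p was that of Rps4y2, with a slope of 0.206 ± 0.054 (SE) per hour and a limma adjusted p of 0.101. Its levels were low, from 0 over 4.07 to 76.5 TPM, and RefSeq gives the symbol as a synonym of Rps4l, a transcribed pseudogene on chromosome 6. Rplp0 had 0.057 ± 0.016 (limma adjusted p = 0.142) and Rps4x had 0.049 ± 0.015 (limma adjusted p = 0.162).

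In L1210 cells the median slope of the members was -0.018 per hour, with 6 above and 78 below 0, and that of all genes was -0.008. Without replicate 8 it was -0.0073 with 19 above 0. Centring on other genes moved the median of the members to 0.0048, with 55 above 0, and that of all genes to 0.0150. The median of the summed share in cells up to 3 h, 3 to 6 h, 6 to 9 h and above 9 h after division was 21.02%, 21.3%, 21.1% and 20.7% in L1210 cells, and 22.2%, 23.5%, 23.6% and 23.6% in CD8+ T-cells, the last from 3 cells of 1 lineage.

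Rpl26 had the lowest p of the members in L1210 cells. It ranged from 0 over 378 to 1981 TPM, and its slope was -0.210 ± 0.074 per hour (SE, 26 lineages), with a limma adjusted p of 0.843. Summed with Gm15772, whose coding sequence differs by so few bases, it ranged from 0 over 2478 to 3859 TPM and had a slope of -0.056 ± 0.033 (limma adjusted p = 0.854). The only cell at 0 for the sum was replicate 8, at 10.35 h after division, and without it the slope of the sum was -0.0082 ± 0.0092 (limma adjusted p = 0.920). In CD8+ T-cells the slope of the Rpl26 row was 0.104 ± 0.091 and that of the sum 0.040 ± 0.023. The next members by p in L1210 cells were Rps14, which lies in the platform of the small subunit, with -0.032 ± 0.012 (limma adjusted p = 0.843), and Rps19bp1 with -0.080 ± 0.034 (0.853).

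**Figure D4:**
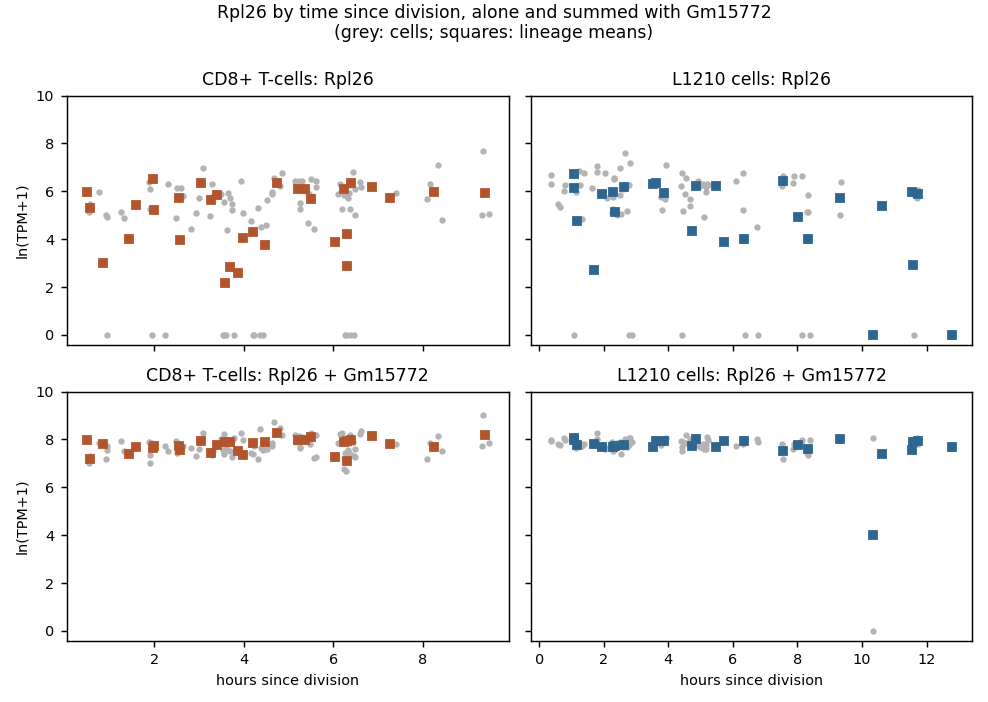
Level of Rpl26 alone (upper panels) and summed with Gm15772 (lower panels), as ln(TPM + 1), against hours since division in CD8+ T-cells and L1210 cells; grey points are cells and squares are lineage means. The row alone scatters down to 0, whereas the sum is nearly flat, with 1 L1210 cell at 0.

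The slopes were compared between the cell types by the interaction of type and time over 57 lineages. Of the members, 78 of 83 had a lower slope in L1210 cells than in CD8+ T-cells, as had 36.1% of all genes, and none was called by limma, where 0.0109% of all genes were called. At an unadjusted p under 0.05 there were 34 members (40.96%) against 11.7% of all genes. With lineages weighted by their cells there were 25 (30.1%) against 8.78%, and without replicate 8 there were 33 (39.8%) against 12.8%. Because the members vary together over cells, these are not counts of independent genes. After rescaling without Rn45s, 70 members had a lower slope in L1210 cells. The median difference of the members then went from -0.0523 to -0.0255 per hour. The lowest p-values were those of Rps4y2, with a difference of -0.211 ± 0.059 per hour (limma adjusted p = 0.177), Rplp0, with -0.085 ± 0.025 (0.211), and Rps14, with -0.084 ± 0.025 (0.217).

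Between the cell types the levels were given without a test, since each type counts as 1 sample, and strain, culture and stimulation cannot be told apart from the type. Over the 83 members that passed the filter in both, 4 were more than 2-fold higher in L1210 cells, where 35.2% of all genes were, and 2 more than 2-fold lower, where 5.11% were. The median difference (L1210 minus CD8+) was -0.097 for the members and 0.459 for all genes on the ln(TPM + 1) scale, and 81.9% of the members were within 1.5-fold, against 37.2% of all genes. The Pearson correlation of the levels across members was 0.966, over genes that are not independent replicates.

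The members past 2-fold were mostly rows with near-identical partners or low levels. Rps19bp1 (difference 0.92), Rpl30 (0.78), Rpl7l1 (0.77) and Rpl34 (0.76) were higher in L1210 cells, and Rpl22l1 (-1.26) and Rps27 (-0.84) were lower. As sums with near-identical rows, Rpl30 differed by 0.25, Rpl34 by 0.06 and Rps27 by 0.05, a change of direction for the last, and 3 members stayed past 2-fold. Next in size were Rps27l, higher in L1210 cells by 0.52, and Rps4y2 (-0.68), Rps4x (-0.58) and Rpl13a (-0.55), lower there. Rps4x lineage means were at most 8.34 in L1210 cells and at least 8.35 in CD8+ T-cells, so they did not overlap.

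**Figure D5:**
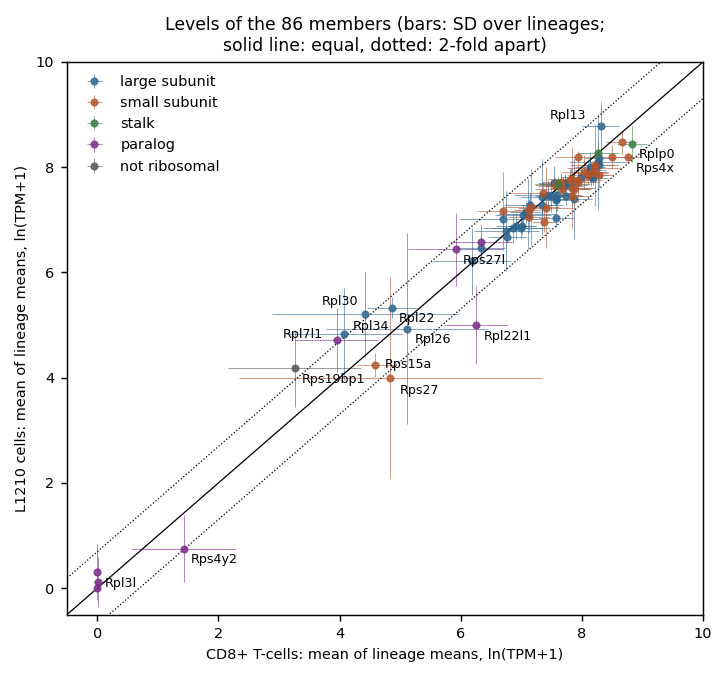
Mean of lineage means of ln(TPM + 1) for each of the 86 members in CD8+ T-cells (horizontal axis) and L1210 cells (vertical axis), with bars for the SD over lineages, colored by role; the solid line marks equal levels and the dotted lines 2-fold differences. Most members lie near the solid line at high levels in both types, and Rpl22l1 lies below it.

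Rpl22 and Rpl22l1 encode closely related proteins of the large subunit, and Rpl22 represses the expression of its paralog. Rpl22l1 ranged from 93.3 over 486 to 2717 TPM in CD8+ T-cells and from 0 over 162 to 1116 TPM in L1210 cells. Rpl22 ranged from 9.88 over 130 to 512 TPM and from 43.9 over 224 to 335 TPM. The paralog was thus higher in CD8+ T-cells and the parent gene in L1210 cells, with Rpl22l1 above Rpl22 in 93 of 97 CD8+ T-cells and in 23 of 81 L1210 cells. The difference between both genes on the ln(TPM + 1) scale was 1.39 ± 0.468 in CD8+ T-cells (SD, n = 34 lineages) and -0.33 ± 0.711 in L1210 cells (SD, n = 26 lineages).

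Other paralogs were close to silent or far below their parent. Rpl39l, a testis paralog, was listed at 0 in all cells while Rpl39 had medians of 1502 and 2016 TPM. Rpl3l, known from muscle, was listed at 0 in all CD8+ T-cells and had at most 12.03 TPM in L1210 cells, beside 3380 and 2453 TPM of Rpl3. Rpl10l was above 0 in 1 CD8+ T-cell and 2 L1210 cells. Rpl36al, by contrast, was near its parent, at 547 beside 1074 TPM of Rpl36a in CD8+ T-cells and 807 beside 1016 TPM in L1210 cells. Rps27l, a p53 target, had 377 and 732 TPM, and it was called for lineage in both cell types, with intraclass correlations of 0.451 and 0.265. Without replicate 8 its L1210 call was lost, at 0.116 (limma adjusted p = 0.418). Rpl7l1, which acts in ribosome assembly, had 69.2 and 134 TPM.

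Other genes of translation were taken from lists, whose counts stand beside 12.9% of all genes in CD8+ T-cells, 13.4% in L1210 cells and 4.80% in L1210 cells without replicate 8. Of 19 further genes of translation, most with TOP mRNAs, 9 were called for lineage in CD8+ T-cells and 5 in the L1210 cells (2 without replicate 8), and none for time. They included Npm1, a nucleolar chaperone of ribosome assembly, with an intraclass correlation of 0.691 (limma adjusted p = 8.4e-10), the elongation factors Eef1a1 (0.234) and Eef2 (0.243), Tpt1 (0.303), and the ribosomal fusion protein Fau (0.308), all in CD8+ T-cells. Of 14 genes that control translation, such as mTOR pathway genes, S6 kinases and cap-binding factors, 3 and 1 were called, and none in L1210 cells without replicate 8.

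Mitochondrial ribosomal proteins, which serve a separate ribosome, were called for lineage in 13 of 76 in CD8+ T-cells and in 18 of 76 in L1210 cells, with median intraclass correlations of 0.125 and 0.145. Without replicate 8 the L1210 count was 2. The difference from the cytosolic members was not tested. The 10 mitotic genes were called in 7 and 8 (6 without replicate 8), and the 10 replication genes in 5 and 6 (3 without it), with 1 mitotic gene rising and 1 replication gene falling with time in CD8+ T-cells.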

How the data were processed

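The authors estimated expression with RSEM 1.2.3 on mm10 and deposited TPM per cell, which sum to 1000000 in each library and keep no depth, so the number of genes above 0 TPM stands in for it. The deposited TPM included doublets and failed libraries, and 27 gene names had become dates. Lineages came from the sister and cousin labels, with 3 links that were not mutual left out. Values were analyzed as ln(TPM + 1).

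Lineage was tested with the moderated F-test of limma 3.58.1 in R 4.3.3 and time by a limma slope over lineage means, both adjusted over all genes kept. Methods were tested on simulated data. The Mann-Whitney U-test on related and unrelated pairs was an alternative. Named genes are the 5 highest and lowest members, the 10 of lowest p per test (3 where fewer than 3 passed), the 5 largest differences in each direction, genes by role and paralog pairs, and some of them are not reported here. Near-identical rows, summed as an alternative, the weighted fit of slope differences, and the left-out cells and lineages other than L1210 replicate 15 were chosen after seeing the data. The members and lists were chosen with earlier results of these data known. Shared stretches came from GENCODE transcripts, matched for 85 of 86 members, and start sites from RefSeq. Other steps ran under Python 3.11.15 with pandas 2.3.3, scipy 1.17.1, numpy 2.4.6 and matplotlib 3.10.9.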

Additional observations from a re-analysis of the deposited data

How the results depend on the processing

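The count of members called for lineage in CD8+ T-cells stayed between 41 and 68 under every alternative run other than centring. Centring on genes outside the family gave 36. The share of all genes called was 12.5% at 41, 14.7% at 68 and 9.04% at 36. The L1210 count was 17, against 13.4% of all genes, and shares of all genes follow in brackets. It was 11 (6.36%) with a minimum of 4000 genes above 0 TPM, 10 (10.9%) after rescaling without Rn45s and 9 (4.77%) after centring. It was 2 (4.63%) with genes above 0 TPM as a covariate and 6 (10.5%) with hours as a covariate. With the Mann-Whitney U-test on pairs it was 7 (8.31%). At an adjusted p under 0.01 it was 5, for which no share of all genes is given. Leaving out cells gave 4 (replicate 8, also with near-identical rows summed) to 25 (replicate 15), and 8 without both. The shares of all genes were then 4.80%, 13.1% and 4.66%. Without replicate 8 the intraclass correlations of Rps29 and Rplp0 became -0.0745 and -0.127, also with summed rows, and without replicate 15 they were 0.328 and 0.361. Without both cells those of Rps29 and Rplp0 were -0.0344 and -0.0359, and that of Rplp0 was -0.0011 with the 4000-gene minimum. No member was called for time in L1210 cells or for a difference of slopes under any alternative. In CD8+ T-cells 1 (Rps4y2) was called for time with the 4000-gene minimum (0.25% of all genes), after centring (0.34%) and without CD8 replicate 7 (0.22%). Past 2-fold between cell types there were 2 members with a pseudocount of 10 TPM. Of 9160 genes, 836 were then higher in L1210 cells and 251 lower, against 3223 and 468 in the main setting. With summed rows there were 3 members, beside 3221 genes higher and 467 lower, and Rps27 differed by 0.0517. Over all TPM the L1210 share was 16.4%. The cause of these changes was not tested. TPM keep no read depth and limit what can be said of precision at low levels. No paired analysis was possible because a replicate number only names a cell and pairs nothing between the cell types.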
